A study of Mus musculus with 6 samples.

Results

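The 10 genes described here are the D-type cyclins Ccnd1, Ccnd2 and Ccnd3, the cyclin-dependent kinase (CDK) gene Cdk6, and the CDK inhibitor genes Cdkn1a, Cdkn1b, Cdkn1c, Cdkn2a, Cdkn2c and Cdkn2d. They were chosen by name from the 55421 genes of the count table, and all 10 had enough counts to be tested. RNA sequencing had been carried out on mouse leukemia cells from bone marrow, made leukemic by AE9a, which is a truncated AML1-ETO fusion protein. In 1 group the cells stemmed from donors with intact Ddit4 (AE9a-Ddit4+/+, 3 libraries), and in the other from donors lacking it (AE9a-Ddit4-/-, 3 libraries). The Ddit4 protein is induced by stress and restrains mTOR signaling, and the comparison asks what its loss changes in these cells.

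Both groups were on the C57BL/6 background. Per the study's methods, c-Kit-positive marrow cells of Ddit4+/+ or Ddit4-/- mice, for transduction aged 6 to 8 weeks, received an AE9a retrovirus that also marked them with GFP, and leukemia arose in irradiated female recipients of the same background. The deleted part of the gene is not given in the sources used here. The study gives marrow of transplanted mice as the source, with as many per group as there are libraries. It also passed leukemias on to further recipients. In the primary recipients it followed for survival, fewer knockout leukemias arose than there are knockout libraries. If drawn from those recipients alone, the knockout libraries cannot all stem from separate primary leukemias. Whether the libraries of a group descend from separate primary leukemias is not stated, so the p values measure the spread between these libraries only.

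D-type cyclins bind Cdk4 or Cdk6 in G1 and switch the kinase on. The active kinase phosphorylates the retinoblastoma protein Rb1 and its relatives, which releases E2F factors and lets a cell copy its DNA. Inhibitors of the INK4 family (Cdkn2a, Cdkn2b, Cdkn2c and Cdkn2d) bind Cdk4 and Cdk6 themselves, whereas those of the Cip/Kip family (Cdkn1a, Cdkn1b and Cdkn1c) act mainly on Cdk2 complexes and also bind cyclin D complexes. In blood, Cdk6, Ccnd2 and Ccnd3 serve proliferating progenitors, and Cdkn1a, Cdkn1b, Cdkn1c and Cdkn2c are known for holding stem cells out of cycle.

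Of the 10 genes, Ccnd1, Cdkn1c and Cdkn2d were higher in AE9a-Ddit4-/- cells, Ccnd2 and Cdkn2c were lower, and 5 did not pass the test. A gene passed when the p of the quasi-likelihood test of edgeR, adjusted over all 18375 genes tested by the Benjamini-Hochberg method, was below 0.05. Across all those genes 30.1% passed, 19.4% higher and 10.7% lower, so that such calls were common in this comparison. For 7 of the 10 genes the 3 libraries of one group lay wholly above those of the other, against 50.1% of all genes tested. The median log2 fold change was 0.35 for the 10 genes and 0.04 for all genes tested. D cyclins and INK4 inhibitors each held members that moved in opposite directions, whereas among the Cip/Kip inhibitors Cdkn1c alone passed. Values are given below gene by gene, in CPM (counts scaled to a TMM-adjusted library total of 1000000), and fold changes are knockout over wild type.

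**Figure D1:**
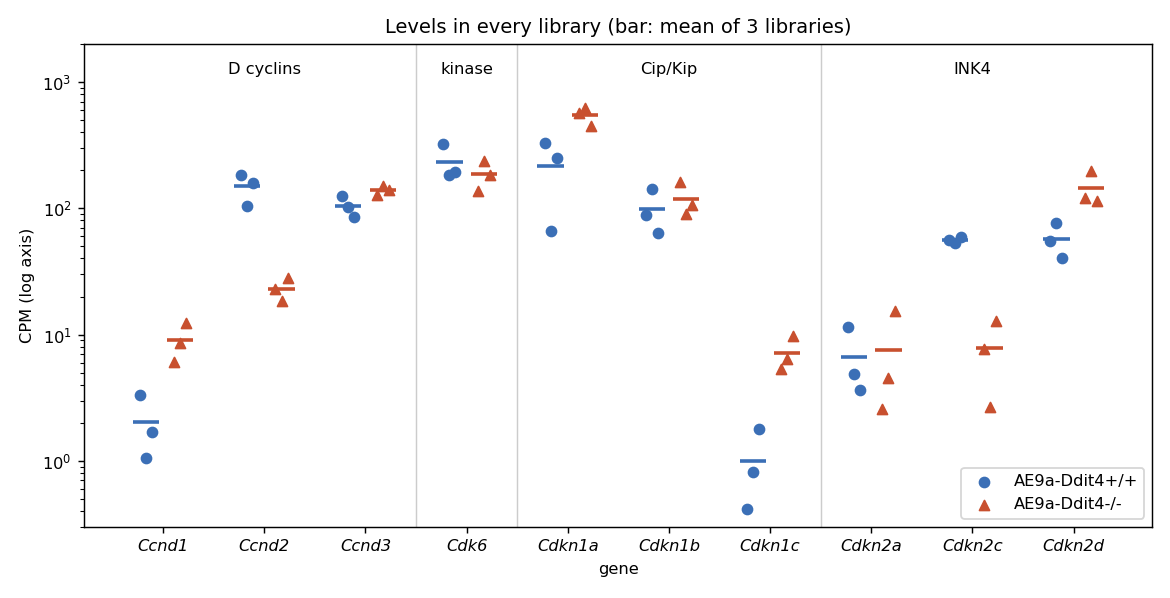
CPM (log axis) of the 10 genes, with 1 circle per AE9a-Ddit4+/+ library, 1 triangle per AE9a-Ddit4-/- library and a bar at the mean of 3 libraries. Ccnd2 and Cdkn2c fell and Ccnd1, Cdkn1c and Cdkn2d rose, each with groups that do not overlap, while the groups of Cdk6, Cdkn1b and Cdkn2a overlap.

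Several features of whole libraries moved with genotype and bear on every value below. Library totals ran from 62141558 to 72717681 counts, and 12 counts, the limit of detection used here, corresponded to 0.163 to 0.198 CPM. Ddit4 itself measured 228, 161 and 342 CPM where intact and 84.9, 77.7 and 85.9 CPM where knocked out, so its level fell but reads remained. For the protein, the study reported a western blot in which DDIT4 was absent from AE9a-Ddit4-/- leukemia cells. The Y-linked gene Ddx3y reached at most 0.0774 CPM in wild-type libraries but 88.2 to 125 CPM in the knockout ones, whereas Xist, the RNA of the inactive X, was 566 to 1032 CPM in wild-type and 20.3 to 129 CPM in knockout libraries. Knockout libraries thus held both RNAs, and sex-linked differences cannot be told apart from genotype. Mitochondrial genes took 6.17% ± 1.52 of the counts in wild-type and 13.3% ± 2.75 in knockout libraries (SD, n = 3 each). Markers of the leukemia label also differed. Runx1t1, the mouse gene of the ETO part of the fusion, was 6.47 to 18.1 CPM in wild-type and 69.9 to 206 CPM in knockout cells. Kit was 14.6 to 31.6 CPM and Cd34 2.26 to 9.83 CPM in AE9a-Ddit4+/+ libraries, against 304 to 509 and 493 to 558 CPM in AE9a-Ddit4-/- libraries, while Mpo and Spi1 did not pass the test.

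Markers of other lineages shifted as well, beside 19.4% higher and 10.7% lower over all genes tested. Of 13 erythroid markers tested, 11 were lower in knockout libraries, and their summed level was 7794 to 16440 CPM in wild-type against 508 to 1064 CPM in knockout libraries, with Hbb-bs the most abundant in wild-type and Car2 in knockout libraries. Of 14 neutrophil markers, 5 were lower (summed 7750 to 12309 against 1487 to 5136 CPM). Of 12 megakaryocyte markers, 9 were higher and 1 lower (143 to 227 against 2421 to 3348 CPM), led by Itga2b, with Gp6 near 0. B cell markers were higher for 9 of 11 (25.6 to 213 against 586 to 1495 CPM, with Rag1 and Rag2 at 0), and T and NK cell markers for 16 of 18 (5.39 to 40.1 against 119 to 202 CPM, with Ncr1 near 0). Stroma and endothelium markers were higher for 8 of 13 (15.9 to 30.9 against 471 to 571 CPM), led by Pdgfrb and Pecam1, with Emcn and Lum near 0. Monocyte and macrophage markers were higher for 4 of 13 (30.8%), but their sums overlapped (252 to 458 against 219 to 646 CPM). Mast cell and basophil markers were higher for 3 of 7 (112 to 135 against 677 to 1236 CPM), led by Cpa3. In all wild-type libraries, 5 of 14 B cell, 8 of 19 T and NK cell and 3 of 15 stroma and endothelium markers were at or under the limit of detection. The tests of such markers rested on their knockout counts. The part of these shifts in the changes of the 10 genes was not tested, and in bulk RNA a different share of cells and a different RNA level per cell cannot be told apart.

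Ccnd2, the D cyclin of many growth-factor-driven blood cells, showed the firmest decrease. It lies on the minus strand of chromosome 6 (127125162 to 127152193, GRCm38; ENSMUSG00000000184). Its level was 184, 104 and 159 CPM in AE9a-Ddit4+/+ libraries, compared with 23.0, 18.3 and 27.8 CPM in AE9a-Ddit4-/- libraries. The lowest wild-type library was thus well above the highest knockout library. The log2 fold change was -2.69 (standard error, SE, 0.28, with an edgeR adjusted p = 0.000898), which is 6.46-fold lower in knockout cells.

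Ccnd1, the D cyclin best known from epithelial and mesenchymal cells and rare in most blood cells, moved the other way from a low level. The gene is on the minus strand of chromosome 7 (144929931 to 144939925; ENSMUSG00000070348). Its level was 3.29, 1.06 and 1.70 CPM in the wild-type libraries, against 6.09, 8.59 and 12.4 CPM in the knockout libraries. All knockout libraries were above all wild-type libraries, and all 6 were above the limit of detection. Its log2 fold change was 2.16 (SE 0.53 with edgeR adjusted p = 0.0197). The call was lost without AE9a-Ddit4+/+ replicate 3 (log2 fold change 2.05, adjusted p = 0.0688) and without AE9a-Ddit4-/- replicate 3 (1.83, adjusted p = 0.0700). The end of Ccnd1 overlaps LTO1 on the opposite strand, which measured 13.1 to 14.6 CPM in wild-type libraries against 6.61 to 11.4 CPM in knockout libraries. Reads in the shared stretch cannot be assigned without knowing whether strand was used in counting.

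Ccnd3, the D cyclin of lymphoid and erythroid precursors, was abundant in both groups. Its position is chromosome 17, plus strand (47505051 to 47599691; ENSMUSG00000034165). Its level was 124, 103 and 85.5 CPM without and 127, 151 and 140 CPM with the knockout. The groups did not overlap, but the gap between them was small. The log2 fold change of 0.42 (SE 0.20) did not pass the test (edgeR adjusted p = 0.146). The end of Ccnd3 overlaps Bysl on the opposite strand, which measured 24.9 to 48.7 CPM in wild-type and 7.98 to 24.3 CPM in knockout libraries. As for Ccnd1, reads in the shared stretch cannot be assigned without strand.

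Because reads scale with transcript length, levels of different genes were compared as CPM per kb of annotated exon. In AE9a-Ddit4+/+ libraries Ccnd2 made up 55.8% ± 7.32 of the summed D cyclin level, Ccnd3 42.7% ± 7.57 and Ccnd1 1.45% ± 0.535 (SD, n = 3). Where Ddit4 was knocked out, Ccnd3 made up 78.5% ± 4.10, Ccnd2 12.1% ± 2.49 and Ccnd1 9.34% ± 2.63. The summed D cyclin level was 34.4, 23.0 and 27.0 CPM per kb in wild-type and 18.2, 21.0 and 21.5 CPM per kb in knockout libraries. The sum was thus lower in each knockout library than in any wild-type library. With the longest transcript as the length, these sums overlapped (43.3 to 62.1 against 38.2 to 44.3), and in wild-type libraries Ccnd3 led with 53.3% before Ccnd2 with 45.7%.

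**Figure D2:**
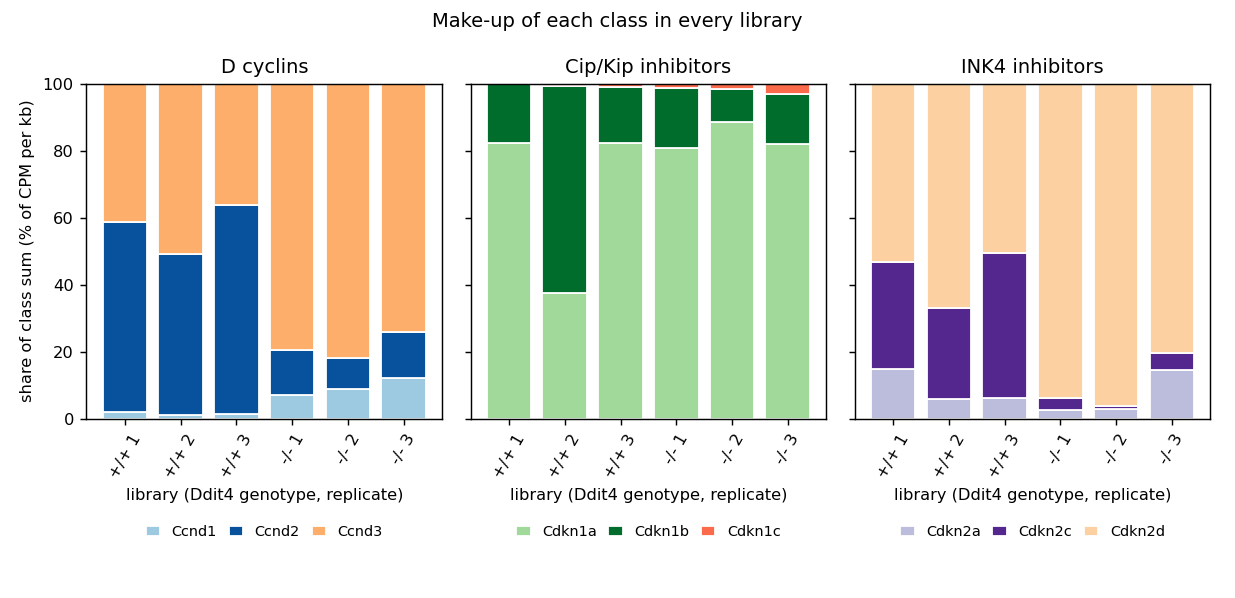
Share (percent of CPM per kb of exon) of each gene in the sum of its family, as 1 stacked bar per library for D cyclins, Cip/Kip inhibitors and INK4 inhibitors. Ccnd2 drops from 48.0 to 62.6% in wild-type to 9.28 to 13.8% in knockout libraries, and Cdkn2c from 27.4 to 43.5% to 0.764 to 5.29%.

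Cdk6, a catalytic partner of the D cyclins that prevails in immature blood cells, showed no difference larger than the spread between libraries. It lies on the plus strand of chromosome 5 (3341485 to 3531008; ENSMUSG00000040274). Its level was 323, 183 and 194 CPM in AE9a-Ddit4+/+ libraries, compared with 136, 237 and 182 CPM in AE9a-Ddit4-/- libraries. The groups overlapped, with AE9a-Ddit4+/+ replicate 1 the highest and AE9a-Ddit4-/- replicate 1 the lowest library. This gave a log2 fold change of -0.33 (SE 0.30 with edgeR adjusted p = 0.435). The sister kinase gene Cdk4 (148, 48.9 and 77.8 CPM against 67.4, 116 and 108 CPM) had a log2 fold change of 0.08 (SE 0.41, adjusted p = 0.898). Per kb of exon, Cdk4 stood above Cdk6 in each library. The means were 28.2 against 16.7 CPM per kb in wild-type and 29.9 against 13.2 CPM per kb in knockout libraries. An antisense transcript inside Cdk6, Gm17590, fell from 2.0 to 6.38 CPM to at most 0.181 CPM.

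Among the Cip/Kip inhibitors, Cdkn1a (p21) was the most abundant in 5 of 6 libraries, and Cdkn1b exceeded it in AE9a-Ddit4+/+ replicate 2. The gene is on the plus strand of chromosome 17 (29090976 to 29100727; ENSMUSG00000023067). Its level was 329, 66.5 and 249 CPM in the wild-type libraries, against 564, 628 and 449 CPM in the knockout libraries. The groups did not overlap, and AE9a-Ddit4+/+ replicate 2 stood far below the other wild-type libraries. The log2 fold change of 1.35 (SE 0.51) did not pass the test (edgeR adjusted p = 0.0859). It passed without AE9a-Ddit4+/+ replicate 2 (0.92, adjusted p = 0.0283) and in DESeq2's Wald test (1.36, adjusted p = 0.0309). A transcript model on the opposite strand within the gene, 1700023B13Rik, measured 2.42 to 5.49 CPM in wild-type and 11.9 to 16.4 CPM in knockout libraries, and reads of both cannot be told apart without strand.

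Since Cdkn1a is the textbook target of p53, the window around its upstream start is shown, with a p53 core word in capitals. RefSeq promoter windows (250 bases before to 50 after a start, GRCm38.p6) were at hand for 7 of the 10 genes, as 11 windows. The p53 core was searched as a pair of CATG words with 6 bases of any kind between them, which reads the same on both strands, and was found in 0.712% of all 32851 windows. Among the 11 windows this was the only match, and its first letter lies at position -48 from that upstream start. The window of the downstream Cdkn1a start (29093519 to 29093818) held 0 matches, so the word lies outside it.
Cdkn1a, chr17:29090729-29091028, plus strand: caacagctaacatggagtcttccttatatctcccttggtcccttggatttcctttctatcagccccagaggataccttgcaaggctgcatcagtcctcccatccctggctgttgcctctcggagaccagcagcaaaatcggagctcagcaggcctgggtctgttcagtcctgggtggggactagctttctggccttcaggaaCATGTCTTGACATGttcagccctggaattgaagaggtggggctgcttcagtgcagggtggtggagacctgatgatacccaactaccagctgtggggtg

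The gene for p53 itself, Trp53, was lower in knockout libraries (165, 54.6 and 129 CPM against 29.6, 44.6 and 57.0 CPM, log2 fold change -1.41, SE 0.43, edgeR adjusted p = 0.0419), although the ranges overlapped. This call was lost without AE9a-Ddit4+/+ replicate 1 or 3 or without any 1 AE9a-Ddit4-/- library. Mdm2, a p53 target that restrains p53, did not pass the test (0.09, SE 0.19, adjusted p = 0.744). Of 19 p53 target genes beside Cdkn1a, Mdm2 included, 6 (31.6%, against 19.4% of all genes) were higher, 0 were lower and 13 did not pass in edgeR, with a median log2 fold change of 0.13. On the lower side 1 had an unadjusted p below 0.05, and DESeq2 called 0. The largest rises were in Perp (log2 fold change 5.50), a membrane protein of cell junctions and cell death, Gdf15 (4.18), a stress cytokine, and Tnfrsf10b (3.19), a death receptor.

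Cdkn1b (p27), which holds resting blood cells in G0 and G1, showed no difference larger than the spread between libraries. Its position is chromosome 6, plus strand (134920401 to 134925513; ENSMUSG00000003031). Its level was 88.8, 141 and 64.1 CPM without and 161, 89.3 and 105 CPM with the knockout, and the groups overlapped. The log2 fold change was 0.28 (SE 0.34 with edgeR adjusted p = 0.579).

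Cdkn1c (p57), an imprinted gene and a marker of quiescent stem cells, rose from a level near the limit of detection. It lies on the minus strand of chromosome 7 (143458339 to 143461050; ENSMUSG00000037664). Its level was 0.412, 0.810 and 1.78 CPM in AE9a-Ddit4+/+ libraries, compared with 5.30, 6.42 and 9.82 CPM in AE9a-Ddit4-/- libraries. The groups were well apart, and the wild-type libraries held 26, 55 and 115 counts. Its log2 fold change was 2.84 (SE 0.61 with edgeR adjusted p = 0.0122), and the call was kept without any single library.

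Cdkn1c sits in an imprinted domain, and a list was made of genes of that domain and of the imprinted stretch beside it. Of 12 tested genes of the list, 4 (33.3%) were higher and 1 (8.33%) lower. Igf2, a fetal growth factor gene 791523 bases from Cdkn1c, had 0 counts in wild-type libraries and 49.6, 55.9 and 6.92 CPM in knockout libraries. This is at least 204-fold higher against a limit of 12 counts per library. Osbpl5, a lipid transfer protein gene, rose from at most 0.309 CPM to 24.3 to 34.8 CPM (log2 fold change 7.68), and the potassium channel gene Kcnq1 rose by 2.33 on the log2 scale. Phlda2, a brake on placental growth, went the other way, from 1.89 to 12.9 CPM to at most 0.122 CPM, at least 37.4-fold lower. The antisense transcript Kcnq1ot1, which silences genes of the domain on the paternal copy, did not pass the test (-0.20, SE 0.40, edgeR adjusted p = 0.740). Of all 31 tested genes within 1 Mb of Cdkn1c, 10 were higher and 2 lower, beside 19.4% higher and 10.7% lower over all genes. The count of 4 higher genes in the list was 2 without AE9a-Ddit4+/+ replicate 1 or 3 or without any 1 of the 3 AE9a-Ddit4-/- libraries.

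The INK4 inhibitors split. Cdkn2c (p18), which limits self-renewal of blood stem cells, was steady within the wild-type group and low in knockout cells. The gene is on the minus strand of chromosome 4 (109660876 to 109667189; ENSMUSG00000028551). Its level was 56.4, 53.2 and 59.2 CPM in the wild-type libraries, against 7.68, 2.68 and 12.9 CPM in the knockout libraries. Its coefficient of variation was 5.33% in wild-type libraries, the lowest among the 10 genes, and 65.9% in knockout libraries. This gave a log2 fold change of -2.86 (SE 0.52 with edgeR adjusted p = 0.00662), or 7.25-fold lower.

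Cdkn2d (p19Ink4d), an INK4 inhibitor whose level swings with the cell cycle, rose. Its position is chromosome 9, minus strand (21288410 to 21291407; ENSMUSG00000096472). Its level was 55.3, 76.0 and 40.3 CPM without and 121, 198 and 115 CPM with the knockout. No wild-type library reached the lowest knockout library. The log2 fold change was 1.34 (SE 0.31 with edgeR adjusted p = 0.0169). The call was lost without AE9a-Ddit4+/+ replicate 1 (1.31, adjusted p = 0.0575) and without AE9a-Ddit4+/+ replicate 3 (1.14, adjusted p = 0.0559).

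Since these sister genes moved in opposite directions, the windows around their upstream starts are set side by side, with GC boxes (GGGCGG on either strand, the word bound by Sp1 and related factors) in capitals. A GC box was present in 35.7% of all windows. Cdkn2c held 4, at positions -95, -51, -40 and 36 from the start, and Cdkn2d held 5, at -118, -106, -38, 14 and 33. The windows were rich in G and C in both genes (73.3% and 66.3%, against a median of 52.7% over all windows). The cell cycle word TTTGAA, found in 17.9% of all windows, had no match in any of the 11 windows.
Cdkn2c, chr4:109666707-109667006, minus strand: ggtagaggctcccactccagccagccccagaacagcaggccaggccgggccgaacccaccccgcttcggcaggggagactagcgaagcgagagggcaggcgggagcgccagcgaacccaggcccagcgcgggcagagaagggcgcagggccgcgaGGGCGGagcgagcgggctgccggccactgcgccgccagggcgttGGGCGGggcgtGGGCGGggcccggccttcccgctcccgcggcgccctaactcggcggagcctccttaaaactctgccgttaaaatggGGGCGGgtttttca
Cdkn2d, chr9:21291160-21291459, minus strand: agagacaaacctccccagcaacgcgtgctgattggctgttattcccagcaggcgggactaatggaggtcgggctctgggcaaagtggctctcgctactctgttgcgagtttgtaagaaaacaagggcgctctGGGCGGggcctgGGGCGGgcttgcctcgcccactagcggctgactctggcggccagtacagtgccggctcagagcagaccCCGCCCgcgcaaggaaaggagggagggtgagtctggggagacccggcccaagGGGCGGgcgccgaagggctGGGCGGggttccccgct

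Cdkn2a encodes p16Ink4a and, from another first exon and reading frame, p19Arf, and the deposited count per gene pools both. It lies on the minus strand of chromosome 4 (89274471 to 89294653; ENSMUSG00000044303). Its level was 11.5, 4.86 and 3.61 CPM in AE9a-Ddit4+/+ libraries, compared with 2.55, 4.56 and 15.4 CPM in AE9a-Ddit4-/- libraries. The groups overlapped, and each had 1 library far above the other two. Its log2 fold change was 0.17 (SE 0.73 with edgeR adjusted p = 0.878), and it was -0.92 (adjusted p = 0.340) without AE9a-Ddit4-/- replicate 3.

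The upstream window of Cdkn2a is shown because it was the only one of the 11 with an E2F word, which is in capitals at position -99. E2F words were searched as TTTCGCGC, TTTGGCGC, TTTCCCGC or TTTGCCGC on both strands and can share letters with a GC box. They occurred in 2.26% of all windows.
Cdkn2a, chr4:89294570-89294869, minus strand: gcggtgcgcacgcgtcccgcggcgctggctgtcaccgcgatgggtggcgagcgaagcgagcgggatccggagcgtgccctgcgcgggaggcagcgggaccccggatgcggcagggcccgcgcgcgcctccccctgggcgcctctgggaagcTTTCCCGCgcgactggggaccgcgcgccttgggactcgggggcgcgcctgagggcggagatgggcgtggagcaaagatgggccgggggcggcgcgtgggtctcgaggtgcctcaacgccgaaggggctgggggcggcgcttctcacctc

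The neighbour of Cdkn2a, the fourth INK4 gene Cdkn2b (p15), lies 11646 bases away and changed where Cdkn2a did not pass. Cdkn2b measured 2.69, 2.59 and 2.54 CPM with Ddit4 intact, whereas the knockout libraries held 0.257, 0.313 and 0.190 CPM. The latter values were 14 to 19 counts, just above the limit of detection. Its log2 fold change was -3.36 (SE 0.46 with edgeR adjusted p = 0.00221). Of 14 tested genes within 1 Mb of Cdkn2a, 4 were lower and 1 higher, with a median log2 fold change of -0.66. Among them were Mtap, which salvages methionine (-1.68, adjusted p = 0.0173), and Focad (-4.32, adjusted p = 0.00344). Around Cdkn2c, 5 of 14 were called lower and the other 9 did not pass, with a median of -0.89, and the nearest coding gene, Faf1, fell by 1.35 on the log2 scale (adjusted p = 0.00195). Over all genes 19.4% were higher and 10.7% lower, and the abundant genes of chromosome 4 (mean log2 CPM above 4) had a median of -0.32. Mtap, Focad and Faf1 were chosen after their values were seen. Near the other 8 genes the median lay between -0.45 around Ccnd2 and 0.64 around Cdkn1c. A gene 85495 bases from Ccnd1, the growth factor gene Fgf3, also chosen after its values were seen, had 2.12 ± 2.43 CPM in AE9a-Ddit4+/+ and 102 ± 28.5 CPM in AE9a-Ddit4-/- cells (log2 fold change 5.59, adjusted p = 0.00589).

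Members of a family were also set against each other within the same library, as 7 ratios, of which none passed the test. The log2 ratio of Ccnd1 to Ccnd2 was 4.61 higher in knockout than in wild-type libraries, that of Ccnd1 to Ccnd3 1.53 higher, that of Ccnd2 to Ccnd3 was -3.08, that of Cdkn1b to Cdkn1c -2.11 and that of Cdkn2c to Cdkn2d -4.34 (differences of log2(CPM + 0.5)). For Cdk6 to Cdk4 the difference was -0.51. The groups did not overlap in these 6 pairs. Of single genes 50.1% did not overlap, and the share over other ratios was not computed. Ccnd1 and Ccnd2 had already passed in opposite directions, as had Cdkn2c and Cdkn2d, so these ratios add no separate evidence. The exact two-sided permutation p was 0.1, below which a design of 3 and 3 libraries cannot go, and 0.117 after adjustment over 7 pairs. The ratio of Cdkn1a to Cdkn1b overlapped between groups (difference 1.31, exact permutation p = 0.3).

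In CPM per kb of merged exons, AE9a-Ddit4+/+ cells held the inhibitors Cdkn1a (60.5 ± 37.9), Cdkn2d (36.3 ± 11.4), Cdkn1b (21.5 ± 8.60) and Cdkn2c (20.9 ± 1.12) at the top. They were followed by Cdk6 (16.7 ± 5.57), Ccnd2 (15.8 ± 4.35), Ccnd3 (11.9 ± 2.21), Cdkn2a (5.67 ± 3.60), Cdkn1c (0.491 ± 0.345) and Ccnd1 (0.429 ± 0.244). In that order each neighbouring pair overlapped between libraries except Cdkn2a and Cdkn1c. In AE9a-Ddit4-/- cells Cdkn1a (154 ± 25.5), Cdkn2d (91.9 ± 29.4) and Cdkn1b (26.0 ± 8.25) led, each clear of the next. Ccnd3 (15.9 ± 1.35), Cdk6 (13.2 ± 3.61), Cdkn2a (6.39 ± 5.87), Cdkn1c (3.52 ± 1.15), Cdkn2c (2.89 ± 1.90), Ccnd2 (2.45 ± 0.506) and Ccnd1 (1.92 ± 0.673) came after, and each overlapped its neighbour (SD, n = 3 each). The order depended on the length used. With the longest transcript, Ccnd3 (27.0 ± 5.03) and Ccnd2 (23.5 ± 6.47) stood above Cdkn2c (22.8 ± 1.21) and Cdkn1b (21.5 ± 8.60) in wild-type cells, and Ccnd3 (36.1 ± 3.06) stood above Cdkn1b (26.0 ± 8.25) in knockout cells, with overlapping ranges.

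Summed over the 6 inhibitors, the level was 178, 122 and 136 CPM per kb in wild-type and 279, 330 and 245 CPM per kb in knockout libraries. Summed over the D cyclins and Cdk6 it was 57.5, 36.1 and 40.8 against 28, 37.9 and 34.5 CPM per kb. The ratio of the former to the latter was 3.10, 3.39 and 3.33 in AE9a-Ddit4+/+ and 9.95, 8.71 and 7.11 in AE9a-Ddit4-/- libraries. The higher inhibitor sum was carried mostly by Cdkn1a and Cdkn2d, of which only Cdkn2d passed the test. These are RNA levels, and the amounts of the proteins, which also depend on degradation, were not measured.

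**Figure D3:**
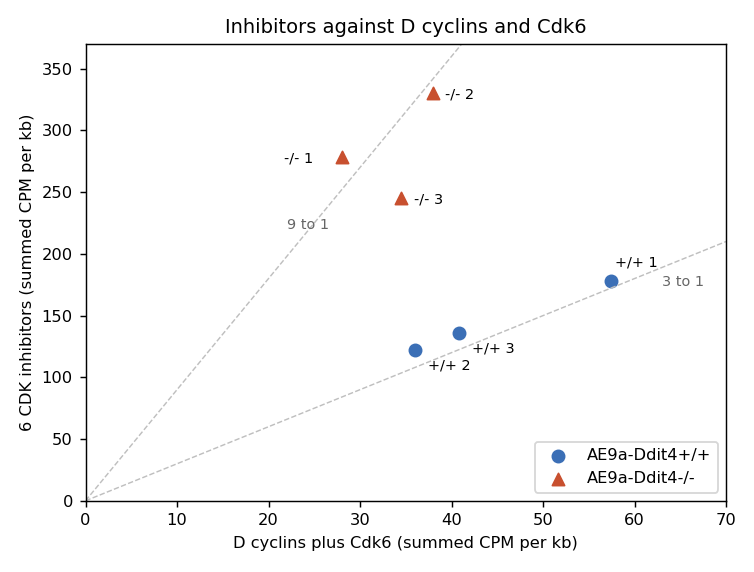
Summed level of the 6 CDK inhibitors (y axis, CPM per kb) against that of the D cyclins plus Cdk6 (x axis, CPM per kb), 1 point per library, with dashed lines at ratios of 3 and 9 to 1. Wild-type libraries lie between ratios of 3.10 and 3.39, and knockout libraries between 7.11 and 9.95. Cdk4 is not in the sums.

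The other genes of the G1 to S step were lower or did not pass. Of 11 further kinase, cyclin and inhibitor genes, 0 were higher and 4 (36.4%, against 10.7% of all genes) lower, with a median log2 fold change of -0.89. Besides Cdkn2b these were Ccne1 (-1.57), Ccne2 (-1.39) and Ccna2 (-1.66), the cyclins that drive Cdk2, while Cdk2 itself did not pass (-0.15, SE 0.31, edgeR adjusted p = 0.741). Of 18 genes for pocket proteins, E2F factors and their partners, 0 were higher and 6 (33.3%) lower, with a median of -0.61. The strongest decreases were in E2f2 (-1.83), E2f8 (-1.59) and Mybl2 (-1.50). Rb1, the main target of cyclin D kinases, measured 135, 105 and 124 CPM against 83.2, 57.6 and 70.6 CPM (-0.78, SE 0.21, adjusted p = 0.0253). E2f1 measured 67.1, 45.1 and 60.5 CPM against 11.5, 25.5 and 26.9 CPM (-1.43, SE 0.35, adjusted p = 0.0200). At an unadjusted edgeR p below 0.05, 0 genes of the first list and 2 of the second (E2f5 and Lin54) were higher, and DESeq2 called 0 and 2 higher. Without AE9a-Ddit4+/+ replicate 1 or without AE9a-Ddit4+/+ replicate 3, 2 genes of the former list and 3 of the latter were called lower.

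**Figure D4:**
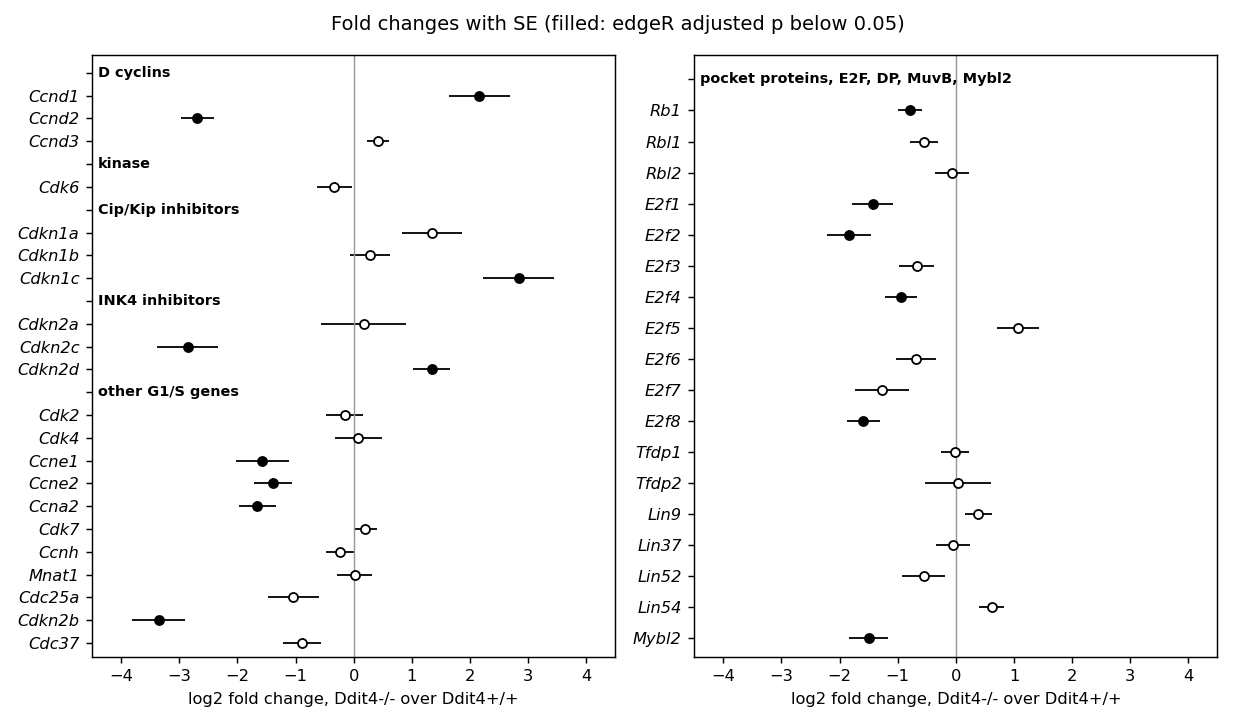
Log2 fold change (x axis, knockout over wild type) with its SE for the 10 genes and the other G1/S genes (left) and for pocket protein, E2F and partner genes (right), filled where the edgeR adjusted p was below 0.05. In the 2 partner lists each filled point is on the lower side, 4 of 11 and 6 of 18 genes, although DESeq2 called 2 genes of the second list higher.

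Among genes downstream, those that passed were lower. Of 20 E2F targets of S phase entry, 7 (35%) were lower and 0 higher (median -1.10), with the largest decreases in Rrm2 (-2.69) and Tk1 (-2.04), which supply nucleotides, and Cdc6 (-2.28), which loads the replication helicase. Of 12 mitotic genes, 6 (50%) were lower and 0 higher (median -0.99). Over all genes 10.7% were lower. Of 8218 abundant genes (mean log2 CPM above 4), 1400 were lower and 1243 higher, with a median of -0.17. Mki67, the Ki-67 antigen of cycling cells, stood at 1306, 838 and 993 CPM in AE9a-Ddit4+/+ and 225, 257 and 311 CPM in AE9a-Ddit4-/- libraries (-1.98, SE 0.23, edgeR adjusted p = 0.00130). Birc5 (-1.70) and Top2a (-1.52) followed. In both lists 0 genes were higher at an unadjusted edgeR p below 0.05 or in DESeq2. The count of lower E2F targets was 3 without AE9a-Ddit4+/+ replicate 1 and 4 without AE9a-Ddit4+/+ replicate 3 or AE9a-Ddit4-/- replicate 1, and that of mitotic genes was 3 without AE9a-Ddit4+/+ replicate 1. These decreases went along with that of the erythroid markers given above, and the part of the erythroid shift in them was not tested. By flow cytometry of Ki-67 protein and DNA, the study reported a lower share of G0 cells in knockout leukemia cells of the endosteal marrow. Bulk RNA does not measure that share, and how these RNA levels relate to it was not tested.

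Of 28 genes whose products control transcription of the 10 genes, 6 (21.4%) were higher and 2 (7.14%) lower, close to the 19.4% and 10.7% of all genes (median 0.13). Hmga2, a chromatin protein that represses Cdkn2a, rose from at most 0.433 CPM to 11.8, 14.0 and 17.7 CPM (log2 fold change 5.71). Foxo1, an activator of Cdkn1a and Cdkn1b, rose by 2.31 and Myc, which can repress Cdkn1a and activates Ccnd2, rose by 1.91 on the log2 scale. Besides Trp53, the Polycomb gene Bmi1, a repressor of Cdkn2a, fell by 0.60 on the log2 scale, a call that was lost without the same libraries as that of Trp53. Of 14 genes for the turnover of cyclin D and inhibitor proteins, 1 was higher and 0 lower (median -0.32). This was Rbx1, the RING subunit of cullin ligases (0.88, edgeR adjusted p = 0.00858). On the lower side 3 had an unadjusted p below 0.05, and DESeq2 called 2.

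The calls for Ccnd2 and Cdkn2c were kept under each of 15 alternatives of processing or left-out libraries, with log2 fold changes of -2.90 to -2.51 and -3.50 to -2.49. The call for Cdkn1c was kept under 14 of 15 (2.47 to 3.55), that for Cdkn2d under 12 (1.0 to 1.6) and that for Ccnd1 under 11 (1.83 to 2.71). Cdkn1a gained a call under 2 alternatives (0.92 to 1.79). Ccnd3 (0.29 to 0.56), Cdk6 (-0.59 to -0.03) and Cdkn1b did not pass under any of the 15, and the log2 fold change of Cdkn2a ran from -0.92 to 0.82.

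**Figure D5:**
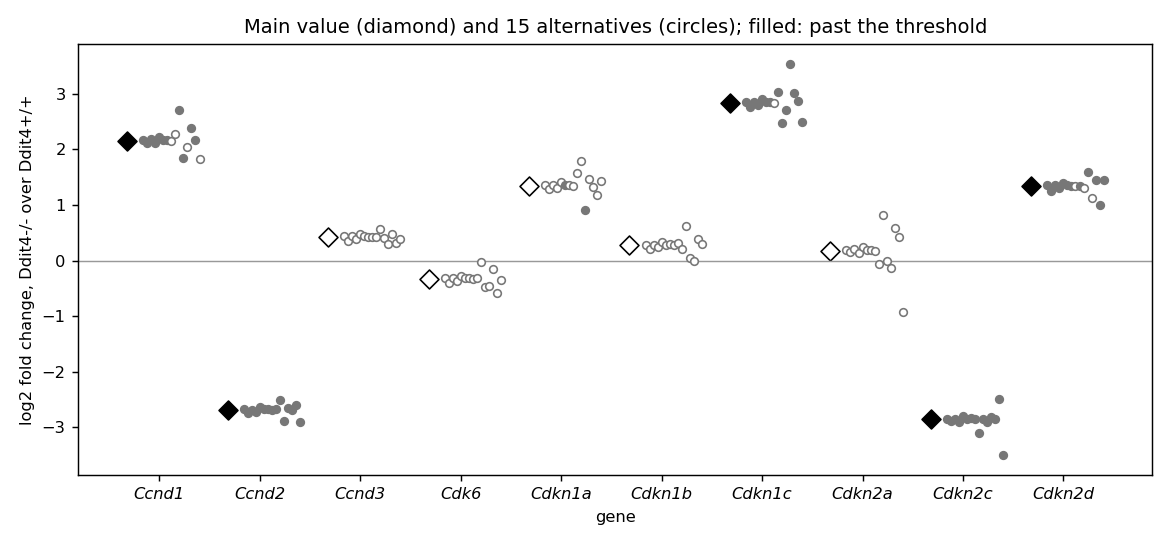
Log2 fold change (y axis, knockout over wild type) of each gene as reported (diamond) and under 15 alternatives (circles), filled where past the threshold. Ccnd2 and Cdkn2c are filled throughout, and the circles of Cdkn2a lie on both sides of 0.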

How the data were processed

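The authors deposited raw counts per gene for the 6 libraries in 1 table (paired reads of 150 bp). The labels name an mRNA kit and the methods a directional kit for rRNA-depleted RNA. The submitters' processing notes name GRCm38 and mm10, and the aligner, counter, annotation and strand setting are not given in the sources used here. Low counts piled up at multiples of 4, so some fragments may have been counted repeatedly. Positions and exon lengths came from GENCODE M21 on GRCm38 for 55240 of 55421 identifiers, and 27 symbols turned into dates were restored.

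Genes were tested in R 4.3.3 with edgeR 4.0.16 (filterByExpr, TMM scaling, robust quasi-likelihood F-test, genotype as the only term, Benjamini-Hochberg adjustment), after the same code was tested on simulated data. SE was obtained from the log2 fold change and F. CPM used TMM-scaled totals. Levels per length divide CPM by kb of merged exons. The limit of 12 counts reflects counting error alone, because no molecular identifiers were used and reads can be copies of 1 molecule. Alternatives were other scalings, filters, DESeq2 1.42.0, counts divided by 4, a stricter threshold, a replicate block, each library left out and transcript length. The members and lists were chosen with earlier results of these data known. Text names all members, Ddit4, Cdk4, Cdk2, Rb1, E2f1, Cdkn2b, Trp53, Mdm2, Mki67, up to 3 genes per list and direction with the largest change past the threshold, markers near 0 or most abundant, and for each member the list gene most like it. A gene that this rule would name is not reported here.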

Additional observations from a re-analysis of the deposited data

How the results depend on the processing

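Over 15 alternatives and 10 genes, 135 of 150 fold changes kept their direction and their side of the threshold, 8 lost the call, 2 gained it and 5 changed sign. The sign changed for Cdkn2a under the replicate block (-0.0597), for Cdkn2a without AE9a-Ddit4+/+ replicate 2, AE9a-Ddit4+/+ replicate 3 or AE9a-Ddit4-/- replicate 3 (-0.92 to 0.82 over the libraries left out in turn) and for Cdkn1b without AE9a-Ddit4-/- replicate 1 (-0.0048 to 0.63 likewise). At an adjusted p below 0.01, 2 of the 10 genes were called, 0 of them higher, and 2676 of all genes (1964 higher, 712 lower). A filter asking for 10 or more counts per library kept 14269 genes, of which 2341 were higher and 1574 lower. Before it, 3560 and 1975 of 18375 genes were. What lowered these numbers was not tested. With each library left out in turn, 3 to 6 of the 10 genes were called, 1 to 4 of them higher, and 3840 to 6021 of all genes (2683 to 3943 higher, 1089 to 2078 lower). The lowest member count came without AE9a-Ddit4+/+ replicate 3, and genes called lower were fewest without AE9a-Ddit4+/+ replicate 3 (1089), AE9a-Ddit4-/- replicate 1 (1157) or AE9a-Ddit4+/+ replicate 1 (1168). The cause was not tested. DESeq2 called 7097 genes and 6 of the 10. The replicate block left 2964 genes called (2177 higher, 787 lower) and 4 of the 10, Ccnd1 being lost (adjusted p = 0.0676). Same-numbered libraries of the groups did not deviate together (correlations -0.28 to -0.04), and 0 wild-type libraries were most like their own number. Whether the numbers pair the samples is not stated, and 3 libraries per group cannot decide it. With the longest transcript in place of merged exons, the ratio of inhibitors to D cyclins plus Cdk6 was 2.73 in wild-type and 7.02 in knockout libraries, and 9 of 20 shares and ratios per length moved by more than 1 SD. The 56 ratios of paired genes under other settings kept their direction, and 339 of 405 values of partner lists stayed within 1.5 times or 1 SD.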

Other observations

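Among genes known from quiescent blood stem cells, most of those tested were higher in AE9a-Ddit4-/- libraries, beside the rise of Cdkn1c. Of 13 such genes 10 were tested, and 7 were higher and 1 lower. Across every gene tested the shares were 19.4% and 10.7%. Log2 fold changes had a median of 3.44 in this list, against 0.04 for every gene tested. In all wild-type libraries 6 of the 13 genes were at or under the limit of detection. Where such genes were tested, the result rested on their knockout counts. When low counts were not filtered out, 5 of the 13 were higher and 1 lower (median 1.69). Fgd5 and Tek, both markers of stem cells and endothelium, were at least 235-fold and 133-fold higher against a limit of 12 counts per library. Vwf was lower (-2.06 on the log2 scale), a call lost without AE9a-Ddit4+/+ replicate 3 or any 1 AE9a-Ddit4-/- library, and Mecom, Ndn and Hoxb5 were at or under the limit in both groups. Vwf is also on the megakaryocyte list, of which 9 of 12 genes rose.

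Over the 6 libraries, the list gene most like each member (Pearson r of log2(CPM + 0.5), 143 candidates) was Mki67 for Ccnd2 (0.99), E2f2 for Cdkn2c (0.99), Fas for Cdkn2d (0.99), Lin52 for Cdk6 (0.97), E2f5 for Cdkn1c (0.97), H19 for Ccnd1 (0.96), Lin9 for Ccnd3 (0.96), Cd81 for Cdkn1a (0.92), Trp53inp1 for Cdkn1b (0.92) and Kmt2a for Cdkn2a (0.88). Each was the best of many, and all points share the split by genotype, so these values describe the libraries only. With group means removed, r was 0.79 for Ccnd2 and Mki67 and 0.95 for Cdkn2c and E2f2.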
